A study of Homo sapiens with 24 samples.

Results

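The comparison described here asks how 12 weeks of inorganic arsenic (iAs) at 100 nM changed the mRNA of HaCaT keratinocytes that overexpress the microRNA hsa-miR-186. HaCaT is a human skin keratinocyte line that is immortal but does not form tumours. Members were chosen by label alone: the 3 libraries of hsa-miR-186 clones kept in 100 nM iAs and the 3 libraries of hsa-miR-186 clones kept without iAs (0 nM), both collected at week 12, which makes 6 of the 24 libraries of the series. All 6 come from cells transduced with hsa-miR-186, so the untreated group carries the microRNA too. Other libraries are compared with these: empty vector clones at the same doses and week (6 libraries), and hsa-miR-186 clones at the same doses at week 29 (6 libraries). All 24 libraries, vector clones at week 29 among them, also set the filter on low levels and the shared estimate of the spread. Each construct is represented by 3 clonal lines, per the labels, and clones with and without iAs were matched for passage. The labels call the samples biological triplicates without saying which clone a number stands for. Standard errors and p-values thus rest on the spread between libraries within groups, pooled over all 24, whatever mixture of clone and culture it holds.

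Trivalent arsenic binds thiol groups of proteins. Cells are known to answer it through NRF2, which drives antioxidant genes, through MTF1, which drives metallothioneins, through heat shock factors, and through kinases of the translation factor eIF2 that raise ATF4 and its targets, the integrated stress response. Mitochondria, the spindle and DNA repair are other recorded targets of arsenic in skin cells. The microRNA is encoded inside an intron of ZRANB2, a gene of pre-mRNA splicing, and shortens the life of mRNAs that carry its seed match.

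MIR186 (GRCh38 chromosome 1, 71067631 to 71067716) was listed at 0 FPKM in all 24 libraries, and poly(A) libraries do not measure a mature microRNA, so overexpression is known here from the labels only. Keratinocyte identity was plain: all 10 keratinocyte markers were present in each of the 6 libraries, with KRT5 at 630 to 1142 FPKM and TP63 at 58.0 to 88.6 FPKM. The summed level of these 10 markers was 2280 to 4837 FPKM without iAs and 2279 to 3373 FPKM with it. Markers of other cells were low. TYR of melanocytes was at 0, and PDGFRA, PECAM1 and KDR stayed under 0.5 FPKM in every library. Of 7 fibroblast markers, 4 stayed under 0.5 FPKM in all 6 libraries, while DCN ran from 0.498 to 27.6 FPKM and the summed fibroblast level from 4.0 to 41.5 FPKM without iAs and 3.49 to 22.9 FPKM with it. Of the 4 endothelial markers only CDH5 was above 1 FPKM, at 5.34 to 20.6 FPKM.

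The sum of FPKM lay between 717557 and 795579, and each library held 14174 to 14588 genes at or above 0.5 FPKM. Read counts were not used here, so absolute depth is unknown. The libraries did not fall into clean treatment groups. Across genes, which are not independent replicates, 0 nM replicate 1 correlated best with 100 nM replicate 3 (r = 0.981), and 0 nM replicate 3 correlated best with 100 nM replicate 1 (r = 0.982). List medians without single libraries are given below where they move.

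No gene passed the test for iAs. With limma on log2(FPKM + 0.5), 0 of 14228 genes (0.0%) reached an adjusted p under 0.05, and the smallest adjusted p was 0.123. At unadjusted p under 0.05 there were 1558 genes (11%), of which 741 (5.21%) were higher with iAs and 817 (5.74%) lower. When FPKM were rescaled without the mitochondrial genome, that split became 1035 higher and 540 lower. The values of the 3 treated libraries lay wholly above the untreated ones for 1255 genes (8.82%) and wholly below for 1161 genes (8.16%), which is called "apart" in what follows. Rescaled without the mitochondrial genome, these counts became 1617 and 822. The shares of 8.82% upward and 8.16% downward over all genes are the background for each list below. Differences were small: 105 genes differed by more than 1 on the log2 scale, 54 of them higher and 51 lower, against a median standard error of 0.24. In simulated libraries of 14228 genes with this spread, limma recovered 68 of 100 genes made to differ by 1 on the log2 scale and 98 of 100 made to differ by 2, with 11 false calls. The adjustment of p is stricter where fewer genes differ, so these shares do not say how many such genes were missed here. All log2 changes are given ± standard error on log2(FPKM + 0.5), which understates the change of genes with low levels, and "higher" or "lower" describes values that did not pass the adjusted test. The number of reads behind each value limits what can be seen at low FPKM.

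The smallest p belonged to AC022400.7, a transcript model on chromosome 10 (73742995 to 73744230, minus strand) that awaits experimental support in the annotation and was picked out after its values were seen. It stood at 12.1, 9.95 and 17.6 FPKM without iAs and at 39.5, 38.7 and 29.5 FPKM with it. The log2 change was 1.44 ± 0.24 (adjusted p = 0.123, limma), and adjusted p over the alternatives ran from 0.00357 to 0.749. In vector clones the change was 0.88 ± 0.24, and at week 29 in hsa-miR-186 clones it was −0.06 ± 0.24.

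Among named genes, the smallest p belonged to L3HYPDH (ENSG00000126790, chromosome 14, 59460363 to 59484430, minus strand), which encodes a dehydratase of trans-3-hydroxyproline breakdown. It stood at 24, 22.8 and 28.4 FPKM without iAs and at 50.3, 45.8 and 43.5 FPKM with it. These groups are apart by a wide gap, a 1.84-fold difference on this scale (0.88 ± 0.17, adjusted p = 0.247, limma). In vector clones the same gene differed by 0.16 ± 0.17.

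CCNL2, METTL1, DPH7 and DESI1 were chosen by the naming rule, as were the genes of the next paragraphs, and no theme was tested over them. CCNL2, a cyclin that works with splicing kinases, had 69.5, 50.8 and 62.2 FPKM without iAs and 98.1, 89.3 and 113 FPKM with it (0.72 ± 0.16). METTL1, the tRNA guanine methyltransferase, had 21.3, 26.8 and 24.7 FPKM against 46.2, 44.8 and 30.1 FPKM (0.70 ± 0.16). DPH7, an enzyme that helps to make diphthamide on elongation factor EEF2, differed by 0.64 ± 0.15, and DESI1, a SUMO peptidase, by 0.59 ± 0.14. All 4 were apart, with adjusted p = 0.348 in limma for each. CCNL2 and DPH7 differed by 0.92 and 0.60 in vector clones, METTL1 by 0.10.

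PPOX, SRM, CHKA and PYCR1 were 4 further genes on the higher side. PPOX, the protoporphyrinogen oxidase of haem synthesis, stood at 6.61, 7.67 and 7.56 FPKM without iAs and at 12.9, 13.9 and 10.0 FPKM with it (0.70 ± 0.16). SRM, the spermidine synthase, had 11.2, 8.02 and 11.8 FPKM against 27.4, 19.3 and 17.4 FPKM (1.00 ± 0.29). CHKA, the choline kinase, differed by 0.73 ± 0.19, and PYCR1, the last enzyme of proline synthesis in mitochondria, had 11.5, 16.6 and 20.2 FPKM against 28.1, 29.7 and 31.0 FPKM (0.90 ± 0.32). In each of these 4 genes the lowest treated library was above the highest untreated one.

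Further genes on the higher side had varied roles. STK11, the LKB1 kinase upstream of AMPK, had 13.5, 12.7 and 10.6 FPKM against 18.1, 21.4 and 18.4 FPKM (0.64 ± 0.16). Members of the RAF and MEK cascade, ARAF (0.57 ± 0.15) and MAP2K2 (0.69 ± 0.18), were apart as well. STXBP2, which binds syntaxins in exocytosis, differed by 0.54 ± 0.13, and RAB11FIP5, an effector of recycling endosomes, by 0.74 ± 0.18. CPNE7, a calcium-dependent membrane binder, stood at 6.80, 8.09 and 9.62 FPKM against 25.5, 14.6 and 10.0 FPKM, so 100 nM replicate 3 was barely above the untreated libraries.

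**Figure D1:**
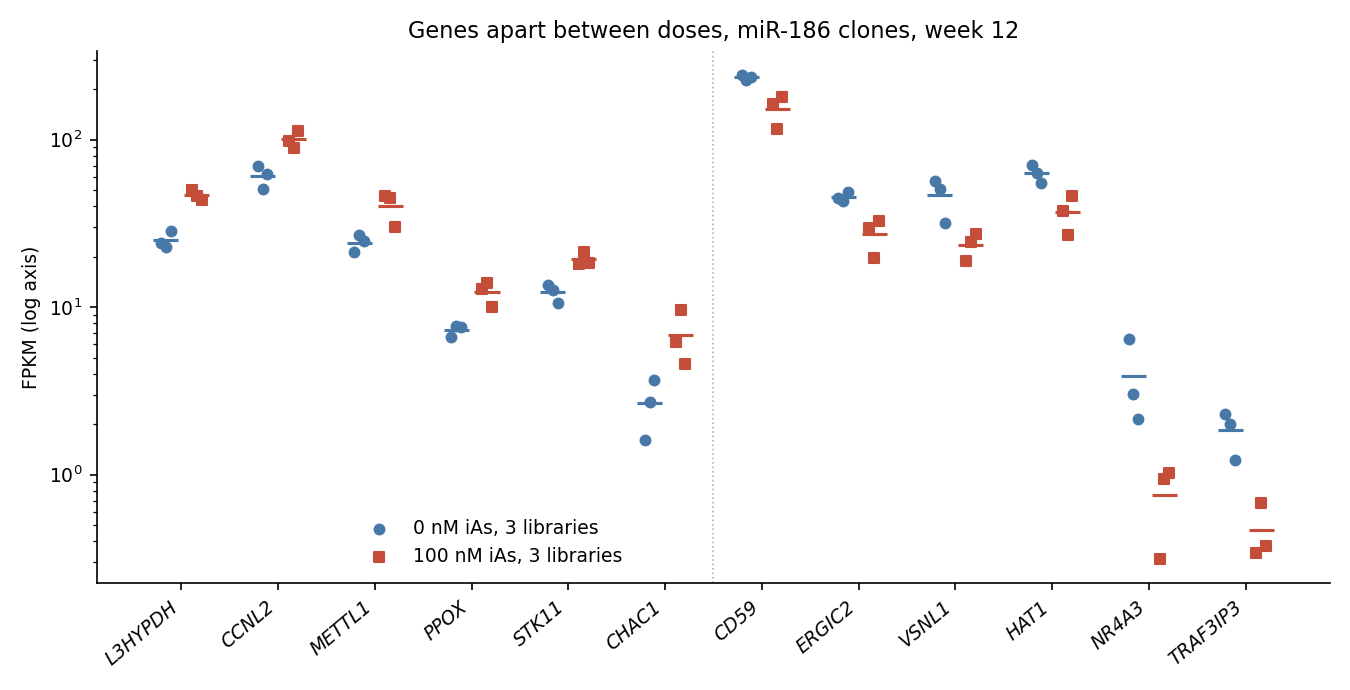
FPKM (log axis) of 12 named genes in the 3 libraries at 0 nM iAs (circles) and the 3 at 100 nM iAs (squares) of hsa-miR-186 clones at week 12, with horizontal lines at group means. The 6 genes left of the dotted line are higher with iAs and the 6 right of it lower, without overlap of the groups in any of them, as for CD59 with 226 to 243 FPKM against 116 to 179 FPKM.

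Among the lower genes was CD59 (ENSG00000085063, chromosome 11, 33703010 to 33736491, minus strand). It encodes the membrane inhibitor of the complement attack complex. Its level was 243, 226 and 236 FPKM without iAs and 164, 116 and 179 FPKM with it (−0.64 ± 0.14, adjusted p = 0.348, limma), and vector clones differed by −0.63 ± 0.14. TRAF3IP3, an adaptor best known from lymphocytes, was low throughout, at 2.30, 2.01 and 1.23 FPKM against 0.341, 0.674 and 0.377 FPKM (−1.27 ± 0.27). VSNL1, a neuronal calcium sensor, had 56.5, 50.8 and 31.8 FPKM against 18.8, 24.6 and 27.3 FPKM (−0.94 ± 0.22).

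Further genes on the lower side had varied roles as well. ERGIC2, a cargo receptor between endoplasmic reticulum and Golgi, had 44.6, 43.2 and 48.9 FPKM against 29.7, 19.5 and 32.6 FPKM (−0.76 ± 0.20). VPS35, a core retromer subunit, differed by −0.58 ± 0.16, ATG5, which is needed to lipidate autophagosome membranes, by −0.67 ± 0.18, and SEPT7, a septin filament subunit, by −0.69 ± 0.19. FRMD4B, a scaffold of epithelial junctions, differed by −0.77 ± 0.19 and FAR1, which makes fatty alcohols for ether lipids, by −0.53 ± 0.15. HAT1, which acetylates new histone H4, had 70.6, 63.1 and 54.9 FPKM against 37.4, 26.8 and 45.9 FPKM (−0.79 ± 0.21). In all of these, 100 nM replicate 2 held the lowest value, except FRMD4B, where replicate 1 did. In vector clones their differences ran from −0.44 for FAR1 to −0.84 for VPS35.

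Several of the largest downward differences were in genes of low level. NR4A3, an orphan nuclear receptor and immediate early gene, stood at 6.43, 3.04 and 2.16 FPKM without iAs and at 0.314, 0.943 and 1.02 FPKM with it (−1.73 ± 0.48, a 3.32-fold lower level on this scale). SELENOP, the secreted selenium carrier, had 2.75, 3.24 and 1.03 FPKM against 0.354, 0.109 and 1.03 FPKM (−1.52 ± 0.54), so 100 nM replicate 3 was level with the lowest untreated library. CCDC85B, a transcriptional repressor, had 12.8, 10.3 and 5.58 FPKM against 3.41, 5.39 and 3.33 FPKM (−1.10 ± 0.30). It differed by 0.04 ± 0.30 in vector clones. For EFL1, a ribosome maturation factor, the fitted value of −1.16 ± 0.49 rested on 0 nM replicate 2, which read 113 FPKM beside 24.3 and 27 FPKM.

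Some of these genes share exon bases with a neighbour, and without a stated strand setting of the counting their reads may not be separable. C1orf74 covers 29.5% of the exon bases of TRAF3IP3, CCDC152 covers 25.5% of SELENOP, B4GALT3 covers 24.3% of PPOX, EEF1AKMT3 covers 19.3% of METTL1, AP002807.1 covers 16.3% of CHKA and AC145207.4 covers 15.6% of PYCR1. MFSD11 likewise covers 36.7% of the exon bases of SRSF2, BEST1 62.4% of FTH1, FAM126B 19.8% of NDUFB3 and SERPINB10 19.9% of SERPINB2, genes that come up later. The same holds for TIGAR (42.6%, AC008012.1), HSPA1B (36.5%, AL671762.1), LDHB (33.4%, AC010197.2), NFE2L2 (17.6%, AC019080.1), PSMA2 (14.6%, AC010132.3) and MUTYH (14.1%, TOE1). The level of the neighbour matters too. BEST1 averaged 1.73 FPKM beside 8620 FPKM for FTH1. On the same strand, FAU (314 FPKM) covers 7.24% of SYVN1 (52.5 FPKM), and RCC1 (20.8 FPKM) covers 5.92% of SNHG3 (17.7 FPKM). For L3HYPDH and STK11 no neighbour above 1 FPKM shared more than 5% of exon bases.

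Genes of the unfolded protein and integrated stress response leaned higher with iAs. None of the 38 tested passed the adjusted test, 36 lay above 0, and the median log2 change was 0.52, against 0.02 over all genes tested, of which 7553 of 14228 lay above 0. Apart were 4 genes (10.5%) upward and 0 downward, close to the 8.82% over all genes. Promoters of 2 members of this response, and of 1 mitotic gene described later, are shown. These groups were taken because their genes leaned together, and only windows that hold the motifs given next are shown. The matches in the windows shown thus follow from that choice and do not describe the other genes of the groups. The windows are the 250 bases before the RefSeq start (GRCh38.p14), 5′ to 3′ on the gene's strand, with matches to TGATGNAA in capitals for the first 2 genes, and matches to TTTGAA and CCAAT for the third. Both strands were searched, so TTGCATCA, TTCAAA and ATTGG are the same motifs on the other strand.
HERPUD1, chr16:56931892-56932141, plus strand: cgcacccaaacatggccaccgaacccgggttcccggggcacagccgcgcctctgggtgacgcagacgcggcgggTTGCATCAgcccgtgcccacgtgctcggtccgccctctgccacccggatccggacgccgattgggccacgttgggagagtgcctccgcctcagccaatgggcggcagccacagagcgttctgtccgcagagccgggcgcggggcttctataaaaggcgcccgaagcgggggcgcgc
CHAC1, chr15:40953221-40953470, plus strand: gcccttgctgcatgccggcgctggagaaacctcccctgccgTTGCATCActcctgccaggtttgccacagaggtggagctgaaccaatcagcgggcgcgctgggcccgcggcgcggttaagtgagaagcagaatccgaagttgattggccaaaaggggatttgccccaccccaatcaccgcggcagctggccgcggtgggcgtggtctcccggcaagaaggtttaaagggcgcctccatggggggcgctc
ASPM, chr1:197146670-197146919, minus strand: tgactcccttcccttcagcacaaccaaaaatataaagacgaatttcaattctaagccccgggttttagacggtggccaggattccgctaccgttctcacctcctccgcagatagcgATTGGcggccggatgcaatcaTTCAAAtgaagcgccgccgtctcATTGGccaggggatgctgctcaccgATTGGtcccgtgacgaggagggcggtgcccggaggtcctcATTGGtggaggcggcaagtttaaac
TGATGNAA is the core of the element that ATF4 binds with C/EBP partners. It was found in 4 of the 35 stress response genes with a window (11.4%) and in 141 of 9886 windows of all genes tested (1.43%). CCAAT, the box bound by NF-Y, was in 26 of these 35 windows (74.3%) and in 3504 of 9886 (35.4%). The motifs, here and for the mitotic genes below, were chosen for these lists and not found by a search. Their shares describe the lists, whatever iAs did. A match describes the sequence and is no evidence of binding.

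The sensors and effectors of the response differed in how they sat across libraries. CHAC1, a glutathione-degrading ATF4 target, had 1.60, 2.73 and 3.67 FPKM without iAs and 6.23, 9.65 and 4.57 FPKM with it (1.20 ± 0.55). SESN2, a stress-induced brake on mTORC1, had 4.69, 5.18 and 9.63 FPKM against 13.4, 11 and 12.4 FPKM (0.93 ± 0.37), and CEBPB, a partner of ATF4, 8.99, 7.94 and 15.1 FPKM against 20.3, 15.6 and 16.8 FPKM (0.74 ± 0.31). These 3 were apart, though 0 nM replicate 3 was the highest untreated library in each.

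In other members 0 nM replicate 3 lay within or near the treated range. HERPUD1, which helps to degrade misfolded proteins of the endoplasmic reticulum, stood at 213, 156 and 368 FPKM against 400, 319 and 381 FPKM (0.66 ± 0.25). SLC3A2, the heavy chain of amino acid exchangers, had 335, 327 and 809.8 FPKM against 903, 695 and 829 FPKM (0.85 ± 0.34), and TRIB3, a pseudokinase induced by ATF4, 28.3, 28.2 and 143 FPKM against 151, 89.3 and 151 FPKM (1.37 ± 0.66). XBP1, which makes the spliced factor of the IRE1 arm (0.57 ± 0.24), the secreted factor MANF (0.82 ± 0.35) and the serine enzyme PSAT1 (0.89 ± 0.39) overlapped in the same way. ATF4 itself had 274, 292 and 455 FPKM against 415, 421 and 446 FPKM (0.36 ± 0.16). The chaperone HSPA5 (BiP) ranged from 847 to 2701 FPKM without iAs and from 1099 to 2256 FPKM with it, so its groups overlapped fully. ATF3 went the other way, at 654, 869 and 871 FPKM against 661, 748 and 517 FPKM (−0.32 ± 0.31). Per library, the median deviation of the 38 genes from the untreated mean was −0.36, −0.41 and 0.69 without iAs and 0.61, 0.24 and 0.67 with it. The median log2 change of the list was 0.89 without 0 nM replicate 3 and 0.35 without 0 nM replicate 1. Beyond the list, SYVN1, the ubiquitin ligase of endoplasmic reticulum degradation, was apart at 27.7, 32.3 and 53.6 FPKM against 69.9, 74.7 and 56.5 FPKM (0.86 ± 0.32), as was FKBP11, a secretory pathway prolyl isomerase (0.92 ± 0.37).

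Transcripts of the mitochondrial genome were higher with iAs, while nuclear genes for the same complexes were lower. Of the 13 mitochondrial mRNAs none passed the adjusted test, 8 were apart upward and 0 downward, with a median of 0.69. They made up 13.6%, 11.8% and 13% of all FPKM without iAs and 19.8%, 24.5% and 15.9% with it. MT-ND2, a complex I subunit, stood at 2462, 2711 and 2713 FPKM against 4715, 6252 and 3242 FPKM (0.80 ± 0.21, adjusted p = 0.348, limma). MT-CO2, of cytochrome oxidase, had 22291, 16924 and 22118 FPKM against 35033, 38573 and 28207 FPKM (0.73 ± 0.20). MT-ND1 (0.82 ± 0.24) and MT-ATP6, of ATP synthase (0.76 ± 0.24), were apart too. In all 4, 100 nM replicate 2 was highest and 100 nM replicate 3 nearest to the untreated libraries.

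MT-ND5 and MT-ND6, complex I subunits whose genes lie next to each other on opposite strands, did not share this shift. MT-ND6 had 1563, 1024 and 1331 FPKM without iAs and 966, 1319 and 1378 FPKM with it (−0.09 ± 0.33), and MT-ND5 differed by −0.03 ± 0.30, values whose sign turned under some alternatives, rescaling without the mitochondrial genome among them for MT-ND5. FPKM are relative to the library total, so a larger mitochondrial share lowers the values of other genes. Rescaling without these transcripts moved the median of all genes from 0.02 to 0.09. In bulk RNA, fewer cells of a type and less RNA per cell cannot be told apart, and RNA quality was not given in the sources used here, so its part was not tested.

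Of 45 nuclear genes of the respiratory chain, 38 lay below 0, with a median of −0.39, and 19 were apart downward (42.2%, against 8.16% over all genes) and 2 upward. NDUFB3 of complex I had 83.4, 73.2 and 66.8 FPKM against 42.6, 33.7 and 56.8 FPKM (−0.77 ± 0.24). COX6C of complex IV had 329, 272 and 255 FPKM against 195, 153 and 220.1 FPKM (−0.60 ± 0.21). UQCRB of complex III (−0.56 ± 0.20), SDHC of complex II (−0.49 ± 0.17) and ATP5F1A of ATP synthase (−0.45 ± 0.17) were apart as well, so each complex had a member among the lower genes. With rescaling the median was −0.32. The mitochondrial ribosome gave a like picture, with 26 of 34 genes below 0, 13 apart downward (38.2%) and 1 upward, and a median of −0.28. MRPS22 stood at 78.1, 76.2 and 84.4 FPKM against 58.6, 40 and 64.6 FPKM (−0.57 ± 0.18), and MRPL47 differed by −0.60 ± 0.20. Nuclear genes that copy and express mitochondrial DNA had a median of −0.12, with 5 of 24 apart downward and 1 upward.

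**Figure D2:**
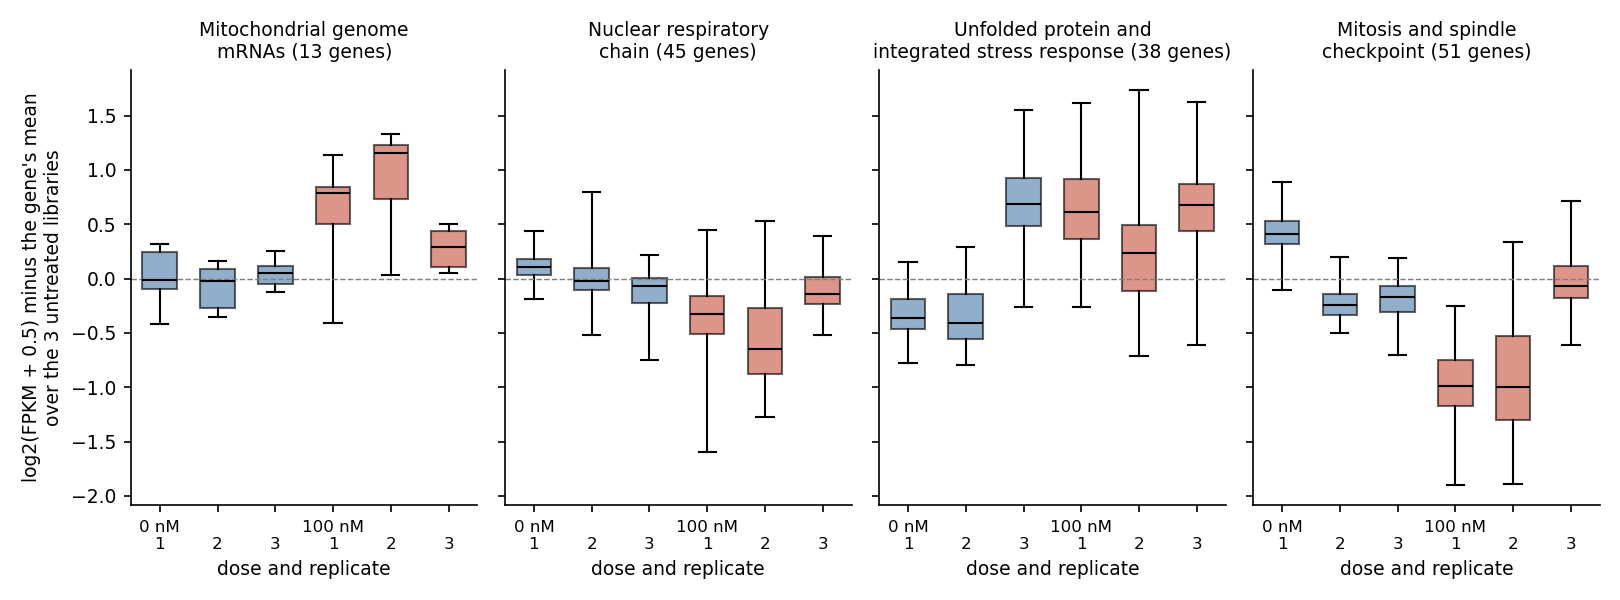
Box plots of log2(FPKM + 0.5) minus each gene's mean over the 3 untreated libraries, for 4 gene lists in each library, with whiskers to the lowest and highest gene and the line at the median. The mitochondrial genome medians are 0.79, 1.15 and 0.29 with iAs, the stress response median of 0 nM replicate 3 (0.69) is as high as the treated ones, and the mitosis median of 100 nM replicate 3 (−0.07) lies among the untreated ones.

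Most proteasome genes lay below 0, and chaperone genes were mixed. Of 31 proteasome genes 28 lay below 0, with a median of −0.36. Apart were 10 downward (32.3%, against 8.16% over all genes) and 1 upward (3.23%). PSMA2 of the core ring had 213, 202 and 190.3 FPKM against 132, 93.1 and 141 FPKM (−0.74 ± 0.22), and PSMB1 had 192, 173 and 159 FPKM against 126, 92.0 and 140.2 FPKM (−0.56 ± 0.16). Heat shock proteins and chaperones had a median of −0.21, with 18 below 0 against 9 above. Apart downward were 7 of 27 (25.9%), and 0 upward. DNAJB6, an anti-aggregation co-chaperone, stood at 80.5, 77.3 and 75.5 FPKM against 61.9, 55.1 and 52.9 FPKM (−0.46 ± 0.14), and CCT5 of the cytosolic chaperonin differed by −0.46 ± 0.15. HSP90AA1, the inducible HSP90, overlapped between groups, with 551, 371 and 296 FPKM against 265, 187 and 355 FPKM (−0.59 ± 0.23). Heat-inducible members went both ways. HSPA6 differed by 1.10 ± 0.95, HSPA1B by 0.31 ± 0.34 and HSPA1A by 0.10 ± 0.45, each with overlap. Reads may be shared between the near-identical HSPA1A and HSPA1B. DNAJB1 (−0.24 ± 0.19), HSPH1 (−0.21 ± 0.15) and HSPB1 (−0.19 ± 0.88) lay below 0, also with overlap. DNAJA1 (−0.49 ± 0.23), DNAJB4 (−0.49 ± 0.34) and HSPE1 (−0.47 ± 0.28) were apart downward. HSF1, the factor that drives heat-inducible genes, differed by 0.62 ± 0.34 and the co-chaperone BAG3 by 0.22 ± 0.23, both with overlap. Without 0 nM replicate 3, HSPA1A stood at −0.21 and BAG3 at −0.03. Cytosolic ribosomal proteins had a median of −0.16. Apart downward were 3 of 53 (5.66%, a smaller share than over all genes), and 1 upward.

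Mitotic genes had the lowest median of the lists with 6 or more genes tested. None of the 51 passed the adjusted test, 49 lay below 0, and the median was −0.68, but only 7 were apart downward (13.7%, against 8.16% over all genes) and 0 upward. ASPM, a spindle pole protein, had 15, 12.4 and 14.2 FPKM without iAs and 5.15, 6.02 and 10.1 FPKM with it (−0.97 ± 0.36). NEK2, a centrosome kinase, had 29.1, 19.0 and 24.1 FPKM against 10.6, 8.17 and 16.9 FPKM (−1.03 ± 0.39). NDC80, which ties kinetochores to microtubules, had 15.9, 16.2 and 15.6 FPKM against 7.52, 7.55 and 10.2 FPKM (−0.89 ± 0.37). CENPF (−0.84 ± 0.36) and CKAP2 (−0.64 ± 0.25) were apart as well, and so was DEPDC1B outside the list, a regulator of mitotic detachment (−1.08 ± 0.42).

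In other mitotic genes 100 nM replicate 3 lay among the untreated libraries. CDK1, the mitotic kinase, had 50.3, 36.9 and 31.7 FPKM against 16.9, 11.2 and 31.7 FPKM (−1.07 ± 0.45). TOP2A, the topoisomerase that untangles sister chromatids, had 163, 94.4 and 104 FPKM against 51.9, 45.8 and 100.2 FPKM (−0.91 ± 0.42), and PBK, a mitotic kinase, 26.4, 11.6 and 11.6 FPKM against 5.19, 3.74 and 12.6 FPKM (−1.21 ± 0.48). Summed over the list, mitotic transcripts came to 2247, 1428 and 1478 FPKM without iAs and to 860.8, 917.8 and 1667 FPKM with it. Leaving out 1 library at a time moved the list median between −0.46 and −0.99. DNA replication and G1/S genes had a median of −0.23 with 2 of 44 apart downward and 0 upward. That median became 0.06 without 0 nM replicate 1, the library with the highest mitotic and replication levels. RRM1, of ribonucleotide reductase, was apart at 57.0, 48.3 and 40.4 FPKM against 30.4, 22.9 and 36.0 FPKM (−0.71 ± 0.27). In the promoter windows, TTTGAA, the core of the cell cycle homology region, was in 23 of 42 mitotic genes (54.8%) and in 824 of 9886 windows of all genes (8.34%). CCAAT was in 33 of the 42 (78.6%). The ASPM window printed above holds 4 CCAAT boxes and 1 TTTGAA match that share no bases.

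Genes that handle arsenic and other metals were mostly close between groups. Of 12 metallothionein and related genes 6 were tested, 1 was apart upward (MT1F, 0.52 ± 0.33) and 0 downward, and the median was 0.11. MT2A, the most abundant inducible metallothionein of many epithelia, had 90.4, 49.8 and 44.8 FPKM without iAs and 53.2, 66.5 and 84.4 FPKM with it (0.19 ± 0.56). MT1X differed by −0.03 ± 0.46. In vector clones at the same week MT2A and MT1X differed by 1.67 ± 0.56 and 1.04 ± 0.46. MT1F and MT1E differed there by 0.58 ± 0.33 and 0.06 ± 0.24, and MT1E here by 0.02 ± 0.24. For MT2A the difference between constructs was −1.48 ± 0.79 (adjusted p = 0.977, limma). Near-identical copies make the split of reads among metallothioneins uncertain. Of 19 arsenic methylation and transport genes 1 was apart in each direction, the exporter ABCC3 at 20.1, 16 and 22.1 FPKM against 28.1, 30.3 and 30.4 FPKM (0.61 ± 0.19), and the reductase GSTO1 (−0.46 ± 0.19).

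Antioxidant genes under NRF2 leaned slightly higher, with 24 of 38 above 0 and a median of 0.27. Apart were 4 upward (10.5%) and 3 downward (7.89%), close to the 8.82% and 8.16% over all genes. GCLM, the modifier subunit of glutathione synthesis, overlapped (0.47 ± 0.24). Some other genes driven by NRF2 did not lie above 0, with overlap in each: NQO1 (−0.01 ± 0.28), TXNRD1 (−0.12 ± 0.24) and TXN (−0.39 ± 0.25). HMOX1, the haem oxygenase that arsenic is known to induce, was low at 1.10, 2.74 and 2.16 FPKM against 4.78, 9.46 and 1.72 FPKM (1.03 ± 0.60), with 100 nM replicate 3 inside the untreated range. NFE2L2, which encodes NRF2, was apart downward at 125, 130.2 and 126 FPKM against 95.9, 98.4 and 119.7 FPKM (−0.29 ± 0.14).

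Over the 13 iron genes tested the median was 0.05, with 0 apart upward and 2 downward. The genes of ferritin, which stores iron, overlapped between groups. FTH1 had 4865, 4001 and 10539 FPKM against 15305, 8241 and 8784 FPKM (0.81 ± 0.33), and FTL differed by 0.68 ± 0.35, with 0 nM replicate 3 again at the treated level in both. Ferritin has many processed copies in the genome, so its counts are uncertain. TFRC, the transferrin receptor that takes iron up, was apart downward at 169, 157 and 129.7 FPKM against 107, 98.0 and 113 FPKM (−0.51 ± 0.19), as was NCOA4, the receptor for ferritin breakdown (−0.44 ± 0.16).

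Keratinocyte genes showed a mixed pattern. Stress keratins and alarmins had a median of −0.57 with 17 of 20 below 0, and 4 apart downward (20%) and 0 upward. SERPINB5 (maspin) had 590.1, 626 and 370.2 FPKM against 271, 330.5 and 323 FPKM (−0.75 ± 0.30), and SERPINB2 differed by −0.81 ± 0.46. This median shrank to −0.14 without 0 nM replicate 1, whose DEFB1 and KRT6A were far above the rest of its group. The kallikrein KLK10 was apart upward at 159, 73.7 and 97.4 FPKM against 170.1, 168 and 240 FPKM (0.86 ± 0.28). Over the 24 differentiation and cornification genes the median was 0.18, with 2 apart upward and 0 downward, and it became −0.01 without 100 nM replicate 2. Basal genes had a median of 0.04, with 3 of 19 apart upward and 1 downward. The integrins went different ways: ITGB1 stood at 176, 199.7 and 199 FPKM against 154, 115 and 166 FPKM (−0.41 ± 0.14), and ITGA3 at 136, 89.6 and 111 FPKM against 156, 142 and 139.6 FPKM (0.40 ± 0.17). Complement regulators had a median of 0.10, and CD59 was the single one of 10 that was apart.

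Genes of RNA handling divided as well. Of 50 SR proteins and splicing regulators 7 were apart upward and 7 downward, with a median of 0.00. SF1, the branch point binding protein (0.44 ± 0.15), and SRSF2 (0.43 ± 0.17) were higher, TRA2B (−0.50 ± 0.19) and HNRNPC (−0.52 ± 0.21) lower. Host genes of small nucleolar RNAs had a median of 0.22 with 2 of 20 apart upward and 0 downward. SNHG3 had 9.78, 11.1 and 18.3 FPKM against 26.6, 21.4 and 19.2 FPKM (0.80 ± 0.22). SNHG12 had 14.7, 10.7 and 52.3 FPKM against 61.5, 24.2 and 45.0 FPKM (0.99 ± 0.55), so 0 nM replicate 3 again matched the treated libraries. The list median became −0.07 without 0 nM replicate 1. NEAT1, the paraspeckle scaffold, stood at 100.4, 146 and 151 FPKM against 180.3, 259.7 and 156 FPKM (0.57 ± 0.25).

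Metabolic, inflammatory and early response genes gave smaller groups. Both lactate dehydrogenase subunits were apart downward, LDHA at 645, 557 and 508 FPKM against 468, 322 and 437 FPKM (−0.49 ± 0.16) and LDHB by −0.58 ± 0.20. VEGFA, the vessel growth factor, was apart upward at 49.6, 33.8 and 60.9 FPKM against 84.6, 64.1 and 80.6 FPKM (0.69 ± 0.33). Hypoxia and glycolysis genes as a list had a median of −0.10, with 1 of 38 apart upward and 4 downward. Sterol genes had 7 of 33 apart downward (21.2%) and 0 upward, and a list median of −0.07. Among them IDI1, an isomerase of isoprenoid synthesis, differed by −0.78 ± 0.33. Among cytokine and NF-kB genes the chemokine CXCL16 (0.53 ± 0.19) and the NF-kB subunit RELB (0.56 ± 0.23) were among 4 of 32 apart upward, with 1 downward. LCN2, an iron-binding alarmin, ran from 339 to 1157 FPKM without iAs and from 1123 to 1849.9 FPKM with it (1.44 ± 0.78), with overlap through 0 nM replicate 3. B2M, the light chain of MHC class I, was apart downward at 8065, 5802 and 6176 FPKM against 4295, 2593 and 5422 FPKM (−0.75 ± 0.28).

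Immediate early genes had a median of −0.24, with NR4A3 and IER3 (−0.50 ± 0.17) the 2 of 29 apart downward and 0 upward. TIGAR, a fructose bisphosphatase, was apart at 15.5, 29.0 and 17.1 FPKM against 11.8, 11.9 and 11.9 FPKM (−0.71 ± 0.21). DNA repair genes had a median of −0.14, with shares apart near those over all genes. Apart upward were 3 of 45 (6.67%), among them the glycosylase MUTYH (0.52 ± 0.19). Apart downward were 5 (11.1%), among them XRCC5 of the Ku heterodimer (−0.48 ± 0.19). Histone genes with poly(A) tails had a median of −0.25 with 5 of 18 apart downward (27.8%) and 0 upward. HIST1H2BC had 7.19, 7.92 and 4.71 FPKM against 2.82, 3.10 and 3.71 FPKM (−0.92 ± 0.31), and reads may be shared among near-identical histone genes.

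**Figure D3:**
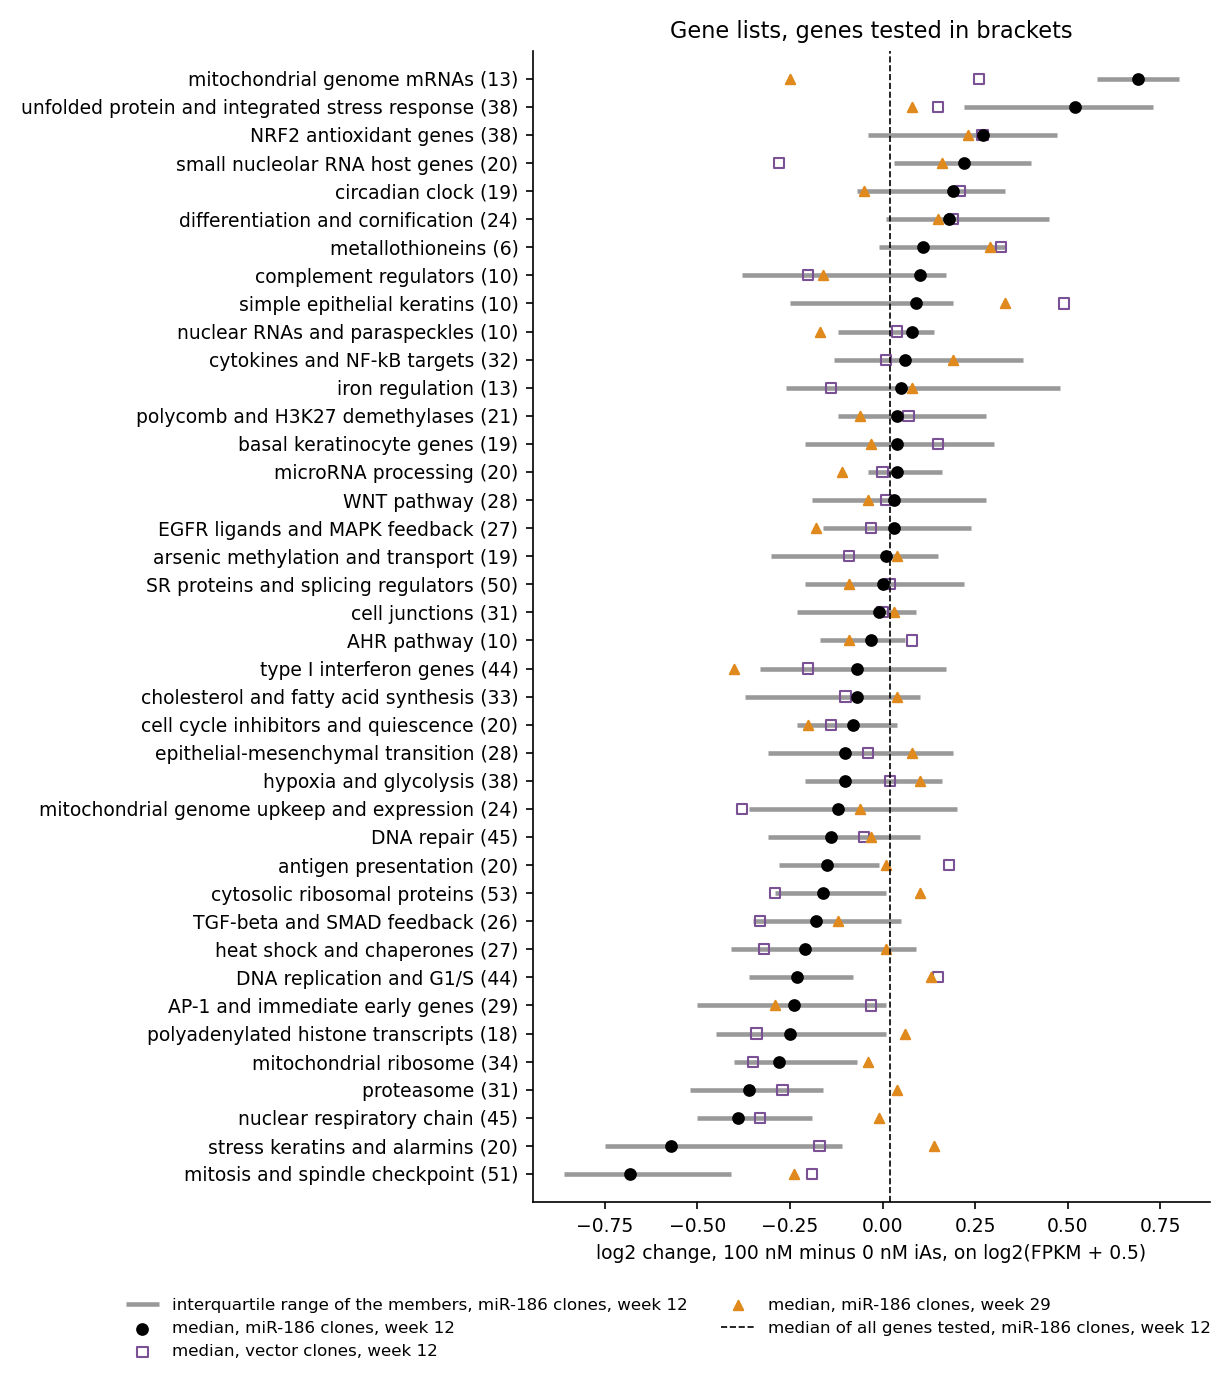
Median log2 change with iAs (horizontal axis, 100 nM minus 0 nM) for the gene lists reported here with at least 6 genes tested, with the interquartile range of its genes as a bar and the number of genes in brackets. Filled circles are hsa-miR-186 clones at week 12, squares vector clones at week 12 and triangles hsa-miR-186 clones at week 29. The list medians at week 12 in hsa-miR-186 clones run from −0.68 (mitosis) to 0.69 (mitochondrial genome) around an all-gene median of 0.02.

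The changes followed the GC content of transcripts. Genes apart upward had a median GC content of 54.8% and genes apart downward 41.4%, against 47.9% over all genes tested. Over 10 equal groups of genes ordered by GC content, the median log2 change went from −0.22 in the lowest to 0.25 in the highest, and in vector clones from −0.36 to 0.74. Among the 6 libraries, the slope of log2 level on GC content, relative to the mean of the 24 libraries, was highest in 100 nM replicate 2 (0.369) and lowest in 0 nM replicate 3 (−0.0904). With a correction for GC content the medians were 0.71 for mitochondrial mRNAs, −0.36 for nuclear respiratory genes, −0.33 for the proteasome, −0.56 for mitosis and 0.45 for the stress response. Of 97 genes given here at unadjusted p under 0.05, 22 no longer had one with the correction, 17 of them higher and 5 lower with iAs. It took STXBP2 from 0.54 to 0.28, STK11 from 0.64 to 0.36, ARAF from 0.57 to 0.37 and SF1 from 0.44 to 0.25. RELB went from 0.56 to 0.28, CXCL16 from 0.53 to 0.36, MUTYH from 0.52 to 0.29, TSC2 from 0.67 to 0.44 and ITGA3 from 0.40 to 0.16. In the stress response CEBPB went from 0.74 to 0.45 and ATF4 from 0.36 to 0.19, and MT1F, a metallothionein, from 0.52 to 0.33. On the lower side FAR1 went from −0.53 to −0.30, ITGB1 from −0.41 to −0.24 and HNRNPC from −0.52 to −0.33. L3HYPDH went from 0.88 to 0.82 and CD59 from −0.64 to −0.60.

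**Figure D4:**
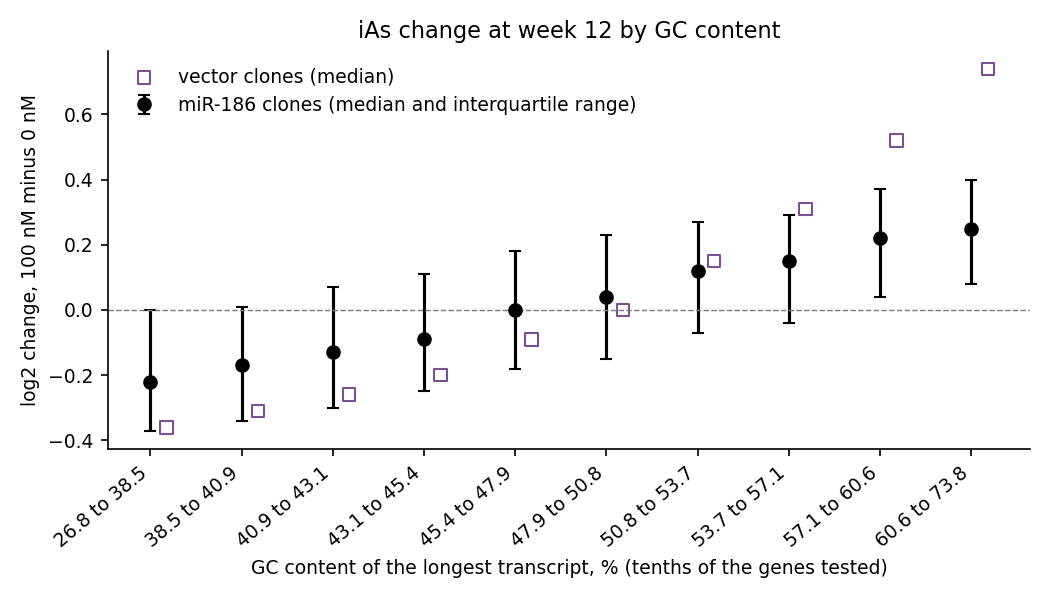
Log2 change with iAs at week 12 in 10 equal groups of genes ordered by the GC content of their longest transcript (horizontal axis, percent). Circles and bars show the median and the interquartile range in hsa-miR-186 clones, squares the median in vector clones, and both climb with GC content, from −0.22 to 0.25 and from −0.36 to 0.74.

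Vector clones at week 12 share no library with this comparison, and their changes leaned the same way. Unlike here, some genes passed the adjusted limma test for iAs in vector clones. Among them were CD59 (−0.63 ± 0.14, adjusted p = 0.0422), NEAT1 (1.4 ± 0.25, adjusted p = 0.0411) and ABCC3 (1.01 ± 0.19, adjusted p = 0.0411). Across the 14228 genes, which are not independent replicates, the log2 changes of the 2 constructs correlated with r = 0.492 (rho = 0.586), and with r = 0.323 after the correction for GC content. Of the 1255 genes apart upward here 561 were apart upward in vector clones, which is 44.7% of this list and 20.2% of the 2774 (19.5% of all genes) there, and 14 were apart in the opposite direction. Of the 1161 apart downward 704 were shared, which is 60.6% of this list and 27.9% of the 2524 (17.7%) there, with 7 opposite. Nuclear respiratory genes had medians of −0.39 here and −0.33 in vector clones, and proteasome genes −0.36 and −0.27. Values were farther apart for mitosis (−0.68 and −0.19), the stress response (0.52 and 0.15), mitochondrial mRNAs (0.69 and 0.26), DNA replication (−0.23 and 0.15) and small nucleolar RNA hosts (0.22 and −0.28).

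**Figure D5:**
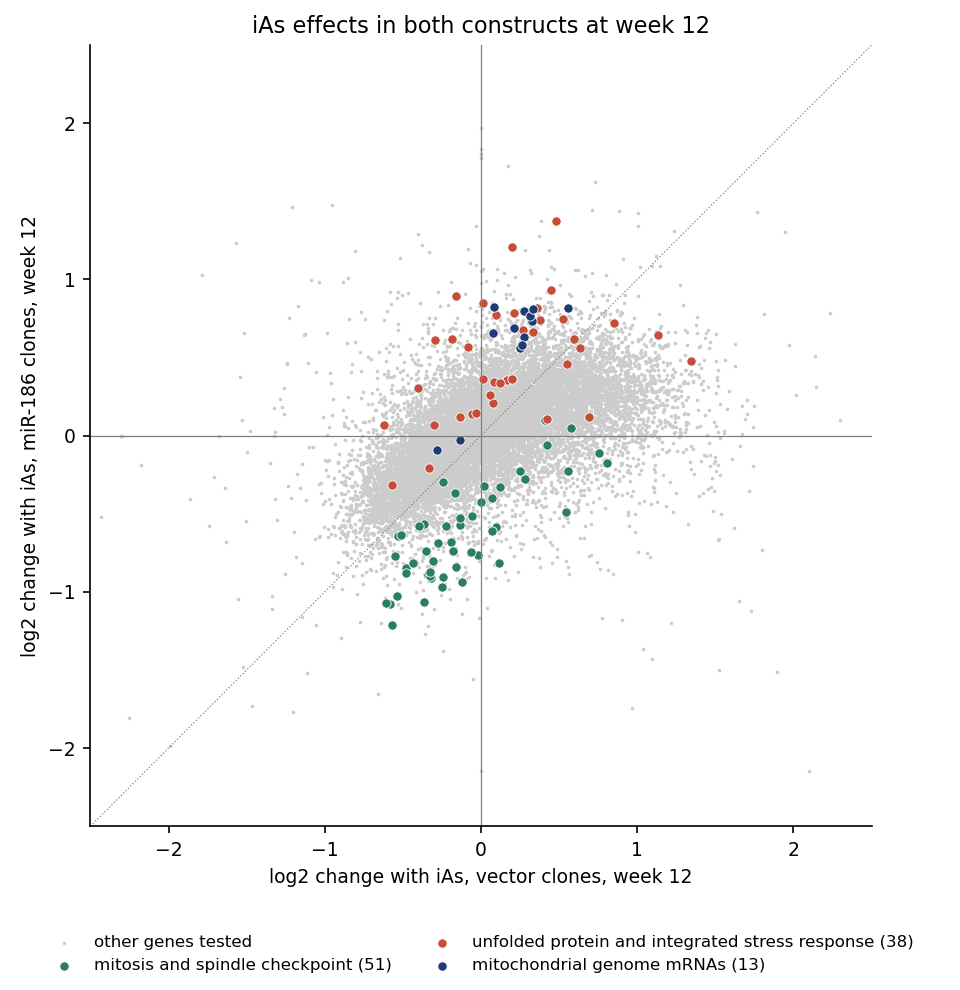
Log2 change with iAs at week 12 in vector clones (horizontal axis) and hsa-miR-186 clones (vertical axis), 1 point per gene, with 3 gene lists in colour, the dotted line marking equal change and 10 of 14228 genes outside the axes. Mitotic genes lie mostly below the dotted line, with medians of −0.68 and −0.19, and mitochondrial mRNAs mostly above it, with medians of 0.69 and 0.26.

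No gene passed the test of the difference between constructs. In limma 0 of 14228 had an adjusted p under 0.05 (smallest 0.977), and 421 (2.96%) had an unadjusted p under 0.05. Of these, 188 (1.32%) were higher in hsa-miR-186 clones and 233 (1.64%) lower. The 2.96% lay below the share of 0.05 that such a threshold passes where no gene differs. The genes named next are thus given as values only. ELF3, an epithelial transcription factor, stood at 513, 439 and 386 FPKM without iAs and at 353, 375 and 349.8 FPKM with it in hsa-miR-186 clones (−0.30 ± 0.19), and differed by 0.66 ± 0.19 in vector clones, a difference of −0.96 ± 0.26 (adjusted p = 0.977, limma). PER1, a clock repressor, differed by −0.14 ± 0.34 here and 1.5 ± 0.34 in vector clones, a difference of −1.64 ± 0.48. PAM, which amidates peptides, had 0.18 ± 0.16 here and −0.57 ± 0.16 in vector clones, a difference of 0.76 ± 0.22. The untreated means of PER1 were 5.71 FPKM in hsa-miR-186 clones and 2.88 FPKM in vector clones, and those of ELF3 446 and 318 FPKM.

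Few genes of any kind were apart at week 29 in the same construct, 2.21% of all genes upward and 3.40% downward. This limits how many can be shared with week 12. The shares of the week 12 genes that were apart in the same direction, 3.67% and 6.63%, were above those of all genes. Across genes the log2 changes of the 2 weeks correlated with r = 0.227 (rho = 0.282). Of the 1255 genes apart upward 46 were apart upward at week 29, which is 3.67% of this list and 14.6% of the 315 (2.21% of all genes) there, and of the 1161 apart downward 77 were shared, which is 6.63% and 15.9% of the 484 (3.40%) there. List medians at week 29 were −0.25 for mitochondrial mRNAs, −0.01 for nuclear respiratory genes, 0.04 for the proteasome, 0.08 for the stress response and −0.24 for mitosis. The test of the difference between weeks in limma called 0 of 14228 genes (smallest adjusted p 1.0), with 439 (3.09%) at unadjusted p under 0.05, of which 132 (0.928%) were higher at week 29 and 307 (2.16%) lower. The 3.09% also lay below the share of 0.05 that such a threshold passes where no gene differs. Among named genes ADAMTS6, a secreted metalloproteinase, had the smallest p: 2.49, 2.01 and 2.80 FPKM against 1.72, 0.724 and 1.69 FPKM at week 12 (−0.69 ± 0.26), and means of 2.16 and 5.15 FPKM at week 29 (1.10 ± 0.26). TSC2, the mTORC1 inhibitor tuberin, had 17.8, 12.2 and 22.3 FPKM against 26.5, 31.2 and 24.3 FPKM at week 12 (0.67 ± 0.20) and −0.39 ± 0.20 at week 29. VSNL1 and HIST1H2BC, lower at week 12, differed by 0.20 ± 0.22 and 0.69 ± 0.31 at week 29, and TNS2, a focal adhesion tensin, by 0.81 ± 0.28 and −0.58 ± 0.28.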

How the data were processed

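HaCaT clones were sequenced as stranded poly(A) libraries, read from both ends at 150 bases and pooled in one run, per the labels' protocols. Reads were processed with STAR 2.6.0c and Cuffdiff 2.2.1 on hg38/GRCh38, per the submitters' processing notes. The authors deposited 1 FPKM value (fragments scaled to transcript length and to library total) per gene and library, for 58381 gene identifiers. Of these, 58261 were matched to names in GENCODE 29. The strand setting and the scaling of the counting are not given in the sources used here, and FPKM hold no read counts, so depth is unknown and no counting interval can be given.

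The 14228 genes whose mean over the 24 libraries reached 0.5 FPKM were transformed to log2(FPKM + 0.5) and fitted with limma 3.58.1 in R 4.3.3 (intensity trend, robust moderation). All 8 groups of 3 libraries shared 1 estimate of the spread, and Benjamini-Hochberg adjustment ran over all genes tested, with a threshold of 0.05. The comparison of 100 nM with 0 nM was fitted together with 2 differences between iAs effects, miR-186 minus vector at week 12 and week 29 minus week 12. The fit was tested on simulated data.

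Named genes came from a rule. In each direction it took the 20 genes of smallest p and the 15 of largest difference at unadjusted p under 0.05, among genes that reached 1 FPKM in their higher group, whose groups were apart and whose names are not clone-based. It added up to 5 genes of smallest p from each of 45 gene lists, and the 8 of smallest p for each difference between effects. Further list members with a known role are named beside them, chosen after their values were seen. The comparison, the lists and the rule were chosen with earlier results of these data known. GC content is that of the longest GENCODE 29 transcript, and promoter windows are from RefSeq. Some genes and 1 gene list are not reported here. Alternatives were other pseudocounts (0.1 and 1), filters (none, and a mean of at least 2 FPKM), scalings, a correction for GC content by a spline of 5 degrees of freedom, a replicate block, plain limma, a fit of the compared groups alone, and leaving out each library.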

Additional observations from a re-analysis of the deposited data

How the results depend on the processing

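The count of genes past the adjusted limma threshold was 0 for iAs and for both differences between effects. Without a filter on low values it became 19 for iAs, 7 for the difference between constructs and 4 for the difference between weeks. The 19 had a median mean level of 0.0175 FPKM, and 1 of them, AC022400.7, was in the table of genes tested. With the GC correction 1 gene passed for iAs, again AC022400.7 (adjusted p = 0.00357). Leaving out 1 library gave 0 to 1 genes for iAs, 0 to 1 for constructs and 0 to 1 for weeks. For iAs the gene was AC022400.7 without 0 nM replicate 3 (adjusted p = 0.0445) and RF02177, a small RNA model picked out after its values were seen, without 0 nM replicate 1. RF02177 is listed at 0 in that library and in the 3 treated ones, and at 36.8 and 45.0 FPKM in the other untreated ones.

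Counts at unadjusted p under 0.05 moved more. For iAs there were 1558, but 2877 of 31357 without a filter, 661 without 100 nM replicate 2 and 2107 without 100 nM replicate 3. The difference between constructs had 421, and 226 to 868 when 1 library was left out (226 without 0 nM replicate 1, 868 without 0 nM replicate 3), 278 with the stricter filter and 1295 without one. The difference between weeks had 439, and 251 to 856 (251 without 100 nM replicate 2, 856 without 100 nM replicate 3, both of week 12), with 1259 without a filter.

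Of 2036 values of 120 of the named genes over 17 alternatives, 2015 kept their direction. Of these 120 genes, 97 had an unadjusted p under 0.05 in limma, and many were picked because their groups were apart. Leaving out a library cannot turn the direction of a gene whose groups are apart. The count thus follows in large part from how the genes were picked and is no measure of robustness. MT-ND5 turned to 0.04 when rescaled without the mitochondrial genome, 0.03 with the GC correction and with block and GC correction, 0.13 without 0 nM replicate 1 and 0.12 without 100 nM replicate 1 (range over left-out libraries −0.16 to 0.13). MT-ND6 turned to 0.02 in both GC corrections, 0.05 without 0 nM replicate 1 and 0.07 without 100 nM replicate 1 (range −0.26 to 0.07). MT1X turned to 0.04 when rescaled, 0.36 and 0.11 without 0 nM replicates 1 and 2, and 0.11 without 100 nM replicate 1 (range −0.55 to 0.36). MT2A turned to −0.01 without 0 nM replicate 3 (range −0.01 to 0.50), and PER1 to 0.02 without 100 nM replicate 1 (range −0.33 to 0.02). HSPA1A turned to −0.11 in both GC corrections, −0.21 without 0 nM replicate 3 and −0.16 without 100 nM replicate 2 (range −0.21 to 0.42), and BAG3 to −0.03 and −0.05 without those libraries (range −0.05 to 0.43). The cause was not tested. Of 714 medians of 42 gene lists, 679 moved by less than the standard deviation of the list's medians between replicate libraries. That limit is wide for lists whose replicates differ, so the count does not say that medians kept their sign. The DNA replication and small nucleolar RNA host medians, which changed sign without 0 nM replicate 1, are counted among the 679.

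Replicate numbers are shared between the groups, but the labels do not say that they pair libraries. Deviations of libraries with the same number correlated with r = −0.296, 0.588 and −0.0409 over 14228 genes, so a shared number did not go with likeness for replicates 1 and 3. As a hint from the data and not the design, 0 nM replicate 1 correlated best with 100 nM replicate 3 (r = 0.415). In the same way 0 nM replicate 2 matched 100 nM replicate 2 (0.588), and 0 nM replicate 3 matched 100 nM replicate 1 (0.564). No fit was made on that. With the replicate block 0 genes passed for iAs, for constructs and for weeks, and counts at unadjusted p under 0.05 were 2374, 926 and 870. With block and GC correction they were 2015, 774 and 1135.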

Other observations

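The lists not described above had medians between −0.18 and 0.19, and none of their genes passed the adjusted limma test. Type I interferon genes had a median of −0.07, with 3 of 44 apart upward and 1 downward. The TGF-beta list stood at −0.18, with 0 of 26 apart upward and 1 downward, and genes of epithelial-mesenchymal transition at −0.10, with 2 of 28 apart upward and 3 downward. WNT genes had 4 of 28 apart upward and 3 downward, and EGFR ligands with MAPK feedback genes 3 of 27 upward and 0 downward, both with a median of 0.03. Circadian clock genes stood at 0.19, with 2 of 19 apart upward and 0 downward.

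Cell cycle inhibitors had a median of −0.08 (1 of 20 apart in each direction), the AHR pathway −0.03 (1 of 10 upward, 2 downward) and cell junction genes −0.01 (1 of 31 upward, 3 downward). Polycomb genes and microRNA processing genes both had a median of 0.04, with 2 of 21 and 2 of 20 apart in each direction. Simple epithelial keratins stood at 0.09 here, with 1 of 10 apart upward and 0 downward, and at 0.49 in vector clones. Antigen presentation genes had a median of −0.15, with B2M among 2 of 20 apart downward and 0 upward. The nuclear RNA list had a median of 0.08, with NEAT1 among 2 of 10 apart upward and 1 downward. ZRANB2, the host gene of MIR186, had means of 32.0 FPKM without iAs and 34.7 FPKM with it. Few markers of other cells were tested: 3 fibroblast, 2 melanocyte, 2 immune and 1 endothelial gene, of which 1 melanocyte and 1 immune gene were apart downward.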
